A study of Rattus norvegicus with 10 samples.

Results

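Keratin gene clusters were examined through 55 of the 32623 features counted in RNA from rat gastric mucosa. A member had 2 or more distinct exons, lay between 87000000 and 88130000 on chromosome 10 or between 142700000 and 143500000 on chromosome 7, and had at least 1 count in any of 10 libraries. Chromosome 10 gave 24 members and chromosome 7 gave 31. Members were thus selected on position, exon number and the presence of counts, the last of which is a measured value. Of 76 multi-exon features in the windows, 21 had 0 counts in every library and stayed out, which allows a level of up to 0.0085 CPM (counts scaled to 1000000 per library) over all libraries together, from a limit of 3 counts and for counting error only. Just inside the limit, 4 members had 1 count over all libraries, all of them on chromosome 7.

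The animals were Sprague Dawley rats, and the labels name epithelial cells as the cell type. Each of 5 groups held 2 libraries: controls whose labels name no treatment, 48 mg/kg indomethacin, 75 mg/kg diclofenac, 400 mg/kg aspirin, and 48 mg/kg indomethacin preceded by intraperitoneal honokiol (40 mg/kg, 30 min earlier). Indomethacin, diclofenac and aspirin are non-steroidal anti-inflammatory drugs that block prostaglandin synthesis, and honokiol is a plant biphenol. The drugs were oral, and the mucosa was collected after 4 h. The honokiol libraries carry a time label of 0.5 h, which is the lead of honokiol, so their 4 h rests on the general protocol. The labels give no age or sex. Nothing in them says that the libraries of a group are different animals, so each p-value reflects the spread of these libraries only. In the control and indomethacin groups 1 library held reads of the Y chromosome and the other at most 2 such counts, so those libraries are of different animals. In the honokiol, aspirin and diclofenac groups the spread may be technical. Both aspirin libraries held 0 such counts, diclofenac replicate 1 held 47 and diclofenac replicate 2 held 0. The source of those 47 was not tested.

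Keratins form the intermediate filaments of epithelial cells, and each filament pairs an acidic type I with a basic type II keratin. In the rat the type I genes other than Krt18 lie together on chromosome 10. The type II genes lie on chromosome 7, and so does Krt18, beside Krt8. Simple epithelia, such as the glandular stomach, mainly use Krt8 with Krt18, Krt19 and Krt20, whereas stratified squamous epithelia, such as skin, oesophagus and the rat forestomach, use Krt5 with Krt14 in the basal layer and other pairs above it. The files list Ensembl identifiers alone, and the RefSeq table for the GRCr8 assembly held 0 of those 32623. That table lists 55 protein-coding keratin (Krt) genes, 27 on chromosome 7, 27 on chromosome 10 and 1 elsewhere. Within the chromosome 10 block it also lists 25 genes of keratin-associated proteins, which belong to hair.

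Genes other than keratins neighbour both blocks in that table. Before the first Krt gene of chromosome 7 come Acvrl1, Acvr1b, Tamalin, Nr4a1, Atg101 and Smim41, and Smarce1 stands before the first of chromosome 10. No source used here gives the build of the files, so which member is which gene, and which members are keratins at all, was not determined. The label of a squamous epithelium signal could not be checked against named markers for the same reason, and members are described by position. No promoter sequence could be matched to a member. Members with enough counts for a test were lettered by position: features A to G on chromosome 10 and H to P on chromosome 7.

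Library totals ran from 23892226 to 44977459 counts. Levels below are TMM-scaled CPM, counts scaled to a common library size. Together the members took 0.0142% to 0.0385% of the counts of a library. The test was edgeR's quasi-likelihood F test over 16346 genes, with a call at 0.05 after Benjamini-Hochberg adjustment. Low counts kept 39 members out of it and 16 passed, 7 on chromosome 10 and 9 on chromosome 7. Feature G, a 3-exon member at 88079078 to 88084780, had 18 and 19 counts with indomethacin and at most 8 in any other library. Its place among the tested members thus rests largely on the indomethacin libraries. With indomethacin its log2 fold change of 2.56 ± 0.997 did not pass (SE, edgeR adjusted p = 0.38).

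**Figure D1:**
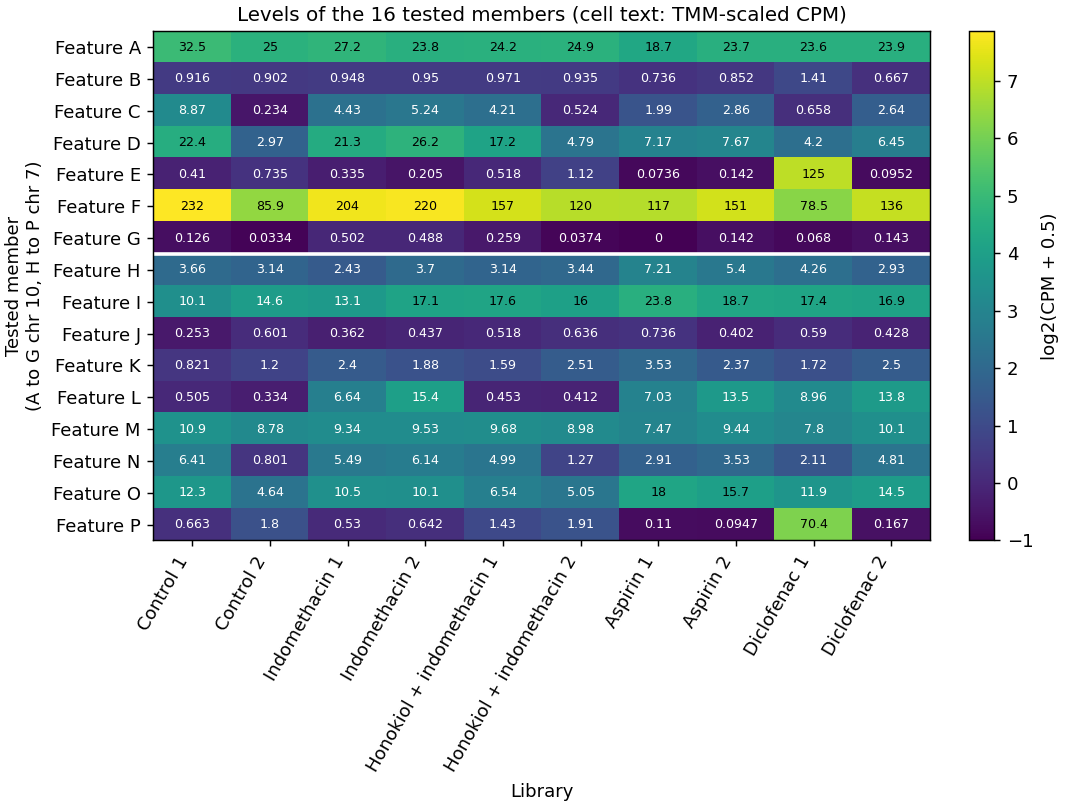
Levels of the 16 tested members (rows) in the 10 libraries (columns), with TMM-scaled CPM printed in each cell and colour showing log2(CPM + 0.5). Feature F is the most abundant row in 9 libraries, and features E and P stand out in diclofenac replicate 1 at 125 and 70.4 CPM.

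Few tested members changed. Against control, indomethacin raised 1 of 16 and lowered 0, where 0.752% of all tested genes were called higher and 0.0245% lower (0.777% in all). Diclofenac raised 1 of 16 and lowered 0, where 4.76% of genes were higher and 3.11% lower (7.87% in all). Aspirin raised 3 of 16 and lowered 0, where 9.5% were higher and 8.26% lower (17.8% in all). The diclofenac and aspirin shares are near the shares in all, and the 3 comparisons share their controls. Tables of aspirin and diclofenac libraries carry 2 lines that name no gene, and the others carry 1. Whether the libraries were handled in these sets is not stated, and any such difference cannot be told apart from these drugs. Honokiol plus indomethacin against control gave 0 of 16 by edgeR, which called 0% of all tested genes there, with 1 member at an unadjusted p under 0.05 and 0 called by DESeq2. Against indomethacin, honokiol plus indomethacin lowered 1 of 16 and raised 0, where 0.3% of genes were lower and 0.0428% higher (0.343% in all).

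Feature F, a 6-exon member on chromosome 10 (88055841 to 88060561, minus strand), was the leading member. Per length its median over the 10 libraries was 103.8 CPM per kb. The next tested members were feature M with 6.56, feature A with 6.3 and feature D with 5.85 CPM per kb. Feature F had 232 and 85.9 CPM in the controls, 204 and 220 with indomethacin, 157 and 120 with honokiol plus indomethacin, 117 and 151 with aspirin, and 78.5 and 136 with diclofenac. The control libraries thus spanned nearly the whole range of the treated ones. Outside diclofenac replicate 1 it held 53.9% to 67.5% of all member counts, with exact Clopper-Pearson 95% intervals from 52.6% to 55.2% and from 66.6% to 68.4% at the ends. In diclofenac replicate 1 it held 21.1% (20.5% to 21.8%). These intervals cover counting error only.

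A set of 3 further members followed feature F from library to library. Feature C (chromosome 10, 87342619 to 87351045, 14 exons) and feature D (chromosome 10, 87391623 to 87407634, 8 exons) lie near each other, and feature N (chromosome 7, 142994119 to 143016040, 9 exons) lies in the other cluster. Over the 10 libraries, which share groups, the log2 levels of C, D, F and N correlated pairwise at Pearson r from 0.85 to 0.96 and Spearman rho from 0.93 to 0.99. Without control replicate 2 and honokiol plus indomethacin replicate 2, r was 0.88 to 0.97 (n = 8), and without diclofenac replicate 1 as well, a further low library, 0.82 to 0.93 (n = 7). These are descriptions of members grouped after their values were seen.

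Feature C had 8.87 and 0.234 CPM in the controls, 4.43 and 5.24 with indomethacin, 4.21 and 0.524 with honokiol plus indomethacin, 1.99 and 2.86 with aspirin, and 0.658 and 2.64 with diclofenac. Feature D had 22.4 and 2.97 CPM in the controls, 21.3 and 26.2 with indomethacin, 17.2 and 4.79 with honokiol plus indomethacin, 7.17 and 7.67 with aspirin, and 4.2 and 6.45 with diclofenac. Feature N had 6.41 and 0.801 CPM in the controls, 5.49 and 6.14 with indomethacin, 4.99 and 1.27 with honokiol plus indomethacin, 2.91 and 3.53 with aspirin, and 2.11 and 4.81 with diclofenac. Control replicate 2 was the lowest library for C, D and N, diclofenac replicate 1 was the lowest for F, and the 2 indomethacin libraries were alike and high.

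Within a group the spread was wide. Control replicate 1 exceeded control replicate 2 by 38-fold for feature C, 7.53-fold for D, 8-fold for N and 2.7-fold for F. Differences as large in either direction were found in 0.0489%, 0.122%, 0.184% and 1.35% of the tested genes. Honokiol plus indomethacin replicate 1 exceeded replicate 2 by 8.04-fold for C, 3.58-fold for D, 3.92-fold for N and 1.3-fold for F. Between the indomethacin libraries the same members differed by at most 1.23-fold. Control replicate 1 held reads of the Y chromosome (3582 counts on 7 features) and control replicate 2 held 1, while both honokiol libraries held such reads (3393 and 2733). Indomethacin replicate 1 held 4438 and replicate 2 held 2. The control pair, far apart in C, D and N, and the indomethacin pair, which was close, both differed in Y reads. With a term for Y reads, the diclofenac log2 fold changes were 0.2 for C, -0.27 for D, -0.11 for F and 0.9 for N. Without it they were -1.47, -1.25, -0.57 and -0.07. The cause of the spread was not tested.

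**Figure D2:**
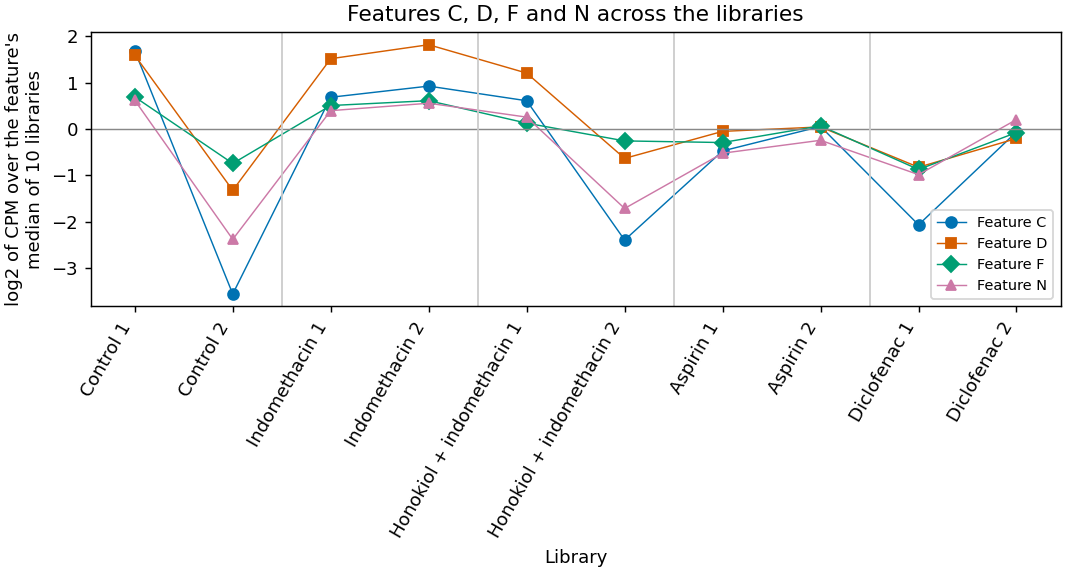
Level of features C, D, F and N in each library as log2 of CPM over the feature's own median of 10 libraries, with vertical lines between groups. All 4 are below their medians in control replicate 2, in honokiol plus indomethacin replicate 2 and in diclofenac replicate 1, where F has its lowest level.

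None of the 4 passed the test in any comparison. For diclofenac against control, features C, D, F and N had log2 fold changes of -1.47 ± 1.54, -1.25 ± 0.95, -0.57 ± 0.42 and -0.07 ± 0.95 (SE, edgeR adjusted p = 0.59, 0.45, 0.41 and 0.98). Without control replicate 1 the same values were 2.83, 0.87, 0.35 and 2.14, so 1 control library set the sign, and N also turned to 0.44 without diclofenac replicate 1. For honokiol plus indomethacin against indomethacin the 4 had -1.01 ± 1.52, -1.11 ± 0.94, -0.61 ± 0.42 and -0.88 ± 0.95 (SE, edgeR adjusted p = 0.9, 0.8, 0.72 and 0.85). Both honokiol libraries lay below both indomethacin libraries for these 4, which were grouped because they moved together. The share of all tested genes with such a separation was not counted.

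Features E and P were nearly silent in 9 libraries and abundant in diclofenac replicate 1. Feature E is an 11-exon model on chromosome 10 (88055823 to 88122233) and feature P a 12-exon model on chromosome 7 (143316920 to 143453546), both on the minus strand and both spanning more of the genome than any other tested member. Feature E had 0.411 and 0.735 CPM in the controls, 0.335 and 0.205 with indomethacin, 0.518 and 1.12 with honokiol plus indomethacin, 0.0736 and 0.142 with aspirin, and 125 and 0.0952 with diclofenac. Feature P had 0.663 and 1.8 CPM in the controls, 0.53 and 0.642 with indomethacin, 1.43 and 1.91 with honokiol plus indomethacin, 0.11 and 0.0947 with aspirin, and 70.4 and 0.167 with diclofenac. The diclofenac libraries were 1310-fold apart for E and 423-fold for P, and replicate 2 lay low together with the aspirin libraries.

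In diclofenac replicate 1 feature E had 5506 counts, and the next highest library by CPM, honokiol plus indomethacin replicate 2, had 30, a ratio of 111 after scaling (exact 95% interval 77.9 to 165, counting error only). Feature P had 3104 counts against 51 in the same library, a ratio of 36.9 (28 to 49.7). Together E and P made up 52.6% of the member counts of diclofenac replicate 1 (exact Clopper-Pearson 95% interval 51.9% to 53.4%, counting error only) and between 0.0845% and 1.66% in the other libraries. The edgeR test, which reads the spread between the 2 diclofenac libraries, did not call either: the log2 fold changes against control were 6.77 ± 2.63 and 4.84 ± 2.17 (SE, adjusted p = 0.18 and 0.23). Without diclofenac replicate 1 the values were -2.51 and -2.83 (edgeR adjusted p = 0.19 and 0.063), and without replicate 2 they were 7.77 and 5.84 (2.1e-06 and 2.3e-05), so the sign rests on 1 library. Each of these fits holds a diclofenac group of 1 library, whose spread is taken from the other groups and was not measured. DESeq2 called both, with log2 fold changes of 6.77 ± 1.91 and 4.83 ± 1.73 (SE, adjusted p = 0.0074 and 0.049).

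A pair of members too low for the test shared this pattern. An 8-exon member on chromosome 10 (88046803 to 88050622) had 258 counts in diclofenac replicate 1, 0 in replicate 2 and at most 4 elsewhere. A 2-exon member on chromosome 7 (143312546 to 143317707) had 198, 0 and at most 5. A 12-exon feature on chromosome 10 (88118001 to 88163723) crosses the window's end and overlaps feature E, and is not a member. It had 139.3 CPM in diclofenac replicate 1, 1.59 in replicate 2 and at most 3.63 elsewhere.

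**Figure D3:**
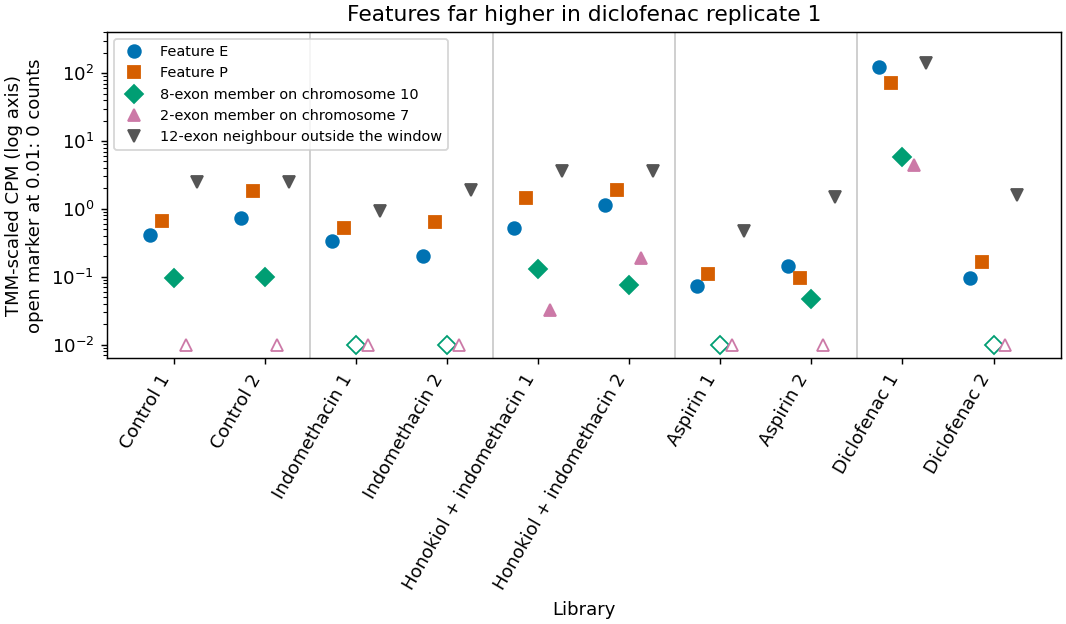
TMM-scaled CPM on a log axis by library, with open markers at the bottom for 0 counts. Shown are features E and P, the 8-exon and 2-exon members with the same pattern, and the 12-exon neighbour that crosses the window's end. In diclofenac replicate 1 all 5 lie above 4 CPM, and in the other 9 libraries none exceeds 3.63 CPM.

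How far this library stood apart was counted over all features, by a rule chosen after the values were seen. Of 10866 features with at least 100 counts in diclofenac replicate 1, 15 (0.138%) were at least 10 times higher there than in every other library. Members made up 4 of these 15, out of the 12 members with at least 100 counts there, so the share among members rests on the features that led to the rule. The same count was 0 in each of the other 9 libraries. At 3 times it was 25 in diclofenac replicate 1, 15 in aspirin replicate 1, 12 in indomethacin replicate 1 and at most 2 elsewhere. The 11 other features lay on chromosomes 3, 7, 9, 10, 11, 12, 16, 17 and 20, and 6 of them had a single exon. Among the rest were a 19-exon feature on chromosome 11 (78234800 to 78456501) with 300 counts against at most 7 elsewhere and a 28-exon feature on chromosome 10 (20844899 to 21265026) with 256 against at most 20. Whether diclofenac replicate 1 held more tissue of another kind was not tested, since no marker could be named. In bulk RNA, more cells of a type and more RNA per cell cannot be told apart.

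Features E and P rose and fell together in the other 9 libraries as well, at levels below 2 CPM. Their log2 levels correlated at r = 0.98 over all 10 libraries (Spearman rho 0.95) and at 0.94 without diclofenac replicate 1. Both aspirin libraries and diclofenac replicate 2 lay below all 6 control, indomethacin and honokiol libraries for E (at most 0.142 against at least 0.205 CPM) and for P (at most 0.167 against at least 0.53 CPM). For aspirin against control the log2 fold changes were -2.28 ± 3.8 and -3.56 ± 3.17 (SE, edgeR adjusted p = 0.7 and 0.46), with the wide errors of a fit that holds both diclofenac libraries. Dropping diclofenac replicate 1 gave -2.27 ± 0.71 for E and -3.52 ± 0.63 for P (SE). Without diclofenac replicate 2 they were -2.29 ± 0.57 and -3.56 ± 0.56 (SE). The error of the aspirin difference thus depends on how the diclofenac spread enters. The aspirin libraries held 2 and 6 counts of E and 3 and 4 of P. How many other tested genes lie lowest in the aspirin libraries and diclofenac replicate 2 was not counted.

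The models of E and P share exon bases with neighbours on the same strand. Feature E shares 657 of its 2133 exon bases with feature F, which is 47.5% of F, and 384 with the 12-exon feature that crosses the window's end. The assignment of reads in shared exons is not stated in any source used here, so levels of E and F are uncertain to that extent. Feature P shares 755 bases with the 2-exon member and 851 with a 9-exon member at 143448318 to 143453544. That 9-exon member has 1553 exon bases it shares with no other feature on its strand, and it had 2 counts in diclofenac replicate 1. The 2-exon member has 135 such bases and had 198 counts. The feature at one end of P was thus high in that library with it, and the feature at the other end was not.

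Feature L (ENSRNOG00000007607, chromosome 7, 142905758 to 142920216, 9 exons, plus strand) changed with all 3 drugs. It had 0.505 and 0.334 CPM in the controls, 6.64 and 15.4 with indomethacin, 7.03 and 13.5 with aspirin, 8.96 and 13.8 with diclofenac, and 0.453 and 0.412 with honokiol plus indomethacin. Every drug library lay above every control and honokiol library, with no overlap, a separation not counted over all tested genes. It rose by a log2 fold change of 4.7 ± 0.54 with indomethacin, 4.75 ± 0.54 with diclofenac and 4.6 ± 0.54 with aspirin (SE, edgeR adjusted p = 0.0056, 0.0021 and 0.0026), comparisons that share the controls. With honokiol before indomethacin it was lower than with indomethacin, the log2 fold change being -4.66 ± 0.54 by edgeR (SE, adjusted p = 0.015), and against control it stood at 0.04 ± 0.66 (adjusted p = 0.99).

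Single libraries ended some of these calls or moved their size. In each fit that leaves a group with 1 library, that library is assumed to vary like the other groups. Without control replicate 1 or 2 the indomethacin value was 5.05 or 4.46 (edgeR adjusted p = 0.078 and 0.12), and without honokiol plus indomethacin replicate 1 or 2 the honokiol value was -4.74 or -4.6 (0.17 and 0.25). Without indomethacin replicate 2 both comparisons kept their call at smaller values, 3.97 and -3.93 (edgeR adjusted p = 0.012 and 0.017). Control replicate 1, indomethacin replicate 1 and both honokiol libraries held Y reads, and within the indomethacin pair L was 6.64 CPM in the library with them and 15.4 in the other. With a term for Y reads L had 4.58 with indomethacin, 4.36 with diclofenac, 4.22 with aspirin and -4.2 for honokiol plus indomethacin against indomethacin (edgeR adjusted p = 0.0068, 0.0088, 0.013 and 0.037). Feature L lies toward the start of the chromosome 7 window. Genes other than keratins neighbour the block on that side in the RefSeq table, so whether L is a keratin is not known here. Features H, I, J and K lie nearer still to that start and M lies next after L, and the same holds for them. All members called in the main fit (I, K and L) are thus among these. Feature A lies toward the start of the chromosome 10 window, where Smarce1 stands before the block, so the same holds for it.

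**Figure D4:**
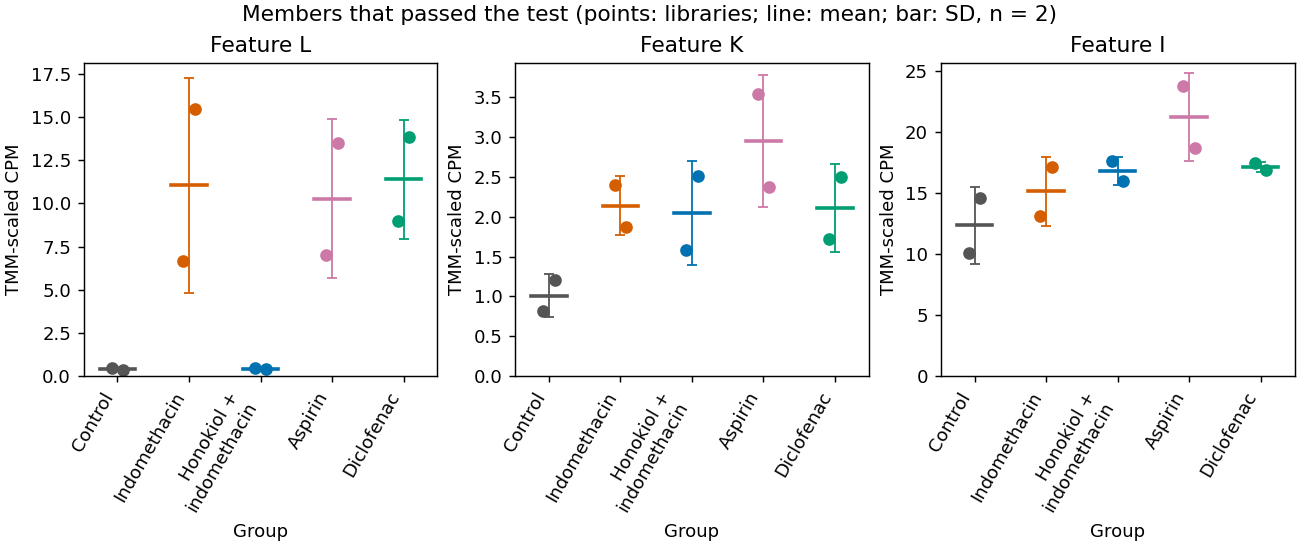
TMM-scaled CPM of features L, K and I by group, with points for libraries, lines for means and bars for the SD (n = 2). For L the indomethacin, aspirin and diclofenac libraries sit between 6.64 and 15.4 CPM and the control and honokiol libraries at most at 0.505 CPM.

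Features K and I rose with aspirin. Feature K (ENSRNOG00000007346, chromosome 7, 142869752 to 142878347, 10 exons) had 0.821 and 1.2 CPM in the controls and 3.53 and 2.37 with aspirin, against 2.4 and 1.88 with indomethacin, 1.59 and 2.51 with honokiol plus indomethacin, and 1.72 and 2.5 with diclofenac. All treated libraries thus lay above both controls, and how many of all tested genes did so was not counted. Its log2 fold change was 1.53 ± 0.38 with aspirin (SE, edgeR adjusted p = 0.023), and 1.08 ± 0.38 with indomethacin, 1.06 ± 0.38 with diclofenac and 1.01 ± 0.38 with honokiol plus indomethacin (adjusted p = 0.3, 0.1 and 0.83). Whether aspirin differed from the other drugs was not tested, and their doses differ.

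Feature I (chromosome 7, 142817157 to 142860572, 9 exons) had 10.1 and 14.6 CPM in the controls, 23.8 and 18.7 with aspirin, 13.1 and 17.1 with indomethacin, 17.6 and 16 with honokiol plus indomethacin, and 17.4 and 16.9 with diclofenac. It rose by 0.78 ± 0.23 on the log2 scale with aspirin (SE, edgeR adjusted p = 0.038). The log2 fold change was 0.29 with indomethacin, 0.48 with diclofenac and 0.45 with honokiol plus indomethacin, and none of these passed. With the replicate number as a block the aspirin call of I was lost, at 0.79 ± 0.24 (SE, edgeR adjusted p = 0.055). Both honokiol libraries held over 1000 Y counts, no aspirin or diclofenac library did, and the control and indomethacin pairs were split. A term for Y reads thus rests on the control and indomethacin pairs alone. With it 4.18% of all tested genes were called with aspirin, in place of 17.8%. Neither aspirin call stood with that term, at 1.51 ± 0.43 for K and 0.58 ± 0.21 for I (SE, edgeR adjusted p = 0.071 and 0.12). Without control replicate 1 they were 1.32 and 0.58 (0.12 and 0.19), and without aspirin replicate 1 they were 1.23 and 0.6 (0.15 and 0.22). The call of I was also lost, at 0.78 to 0.82, without honokiol plus indomethacin replicate 1 or 2 or diclofenac replicate 2 (edgeR adjusted p = 0.059, 0.053 and 0.053).

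Of the remaining tested members, B, G and J were low, at no more than 1.41 CPM. Feature A (chromosome 10, 87116827 to 87137965, 26 exons) had 32.5 and 25 CPM in the controls and 18.7 to 27.2 in the other libraries. Feature M (chromosome 7, 142929400 to 142938554, 6 exons) stayed between 7.47 and 10.9 CPM over all 10 libraries. Feature O (chromosome 7, 143059764 to 143075907, 15 exons) had 12.3 and 4.64 CPM in the controls, 10.5 and 10.1 with indomethacin, 6.54 and 5.05 with honokiol plus indomethacin, 18 and 15.7 with aspirin, and 11.9 and 14.5 with diclofenac. Both aspirin libraries of O lay above all others, which was not counted over all tested genes. Its log2 fold change of 0.99 ± 0.35 did not pass (SE, edgeR adjusted p = 0.073). It passed at 1.89 without control replicate 1 (edgeR adjusted p = 0.021), at 1.46 with a term for Y reads (0.046), at 1.01 without a low-count filter (0.0013) and at 1 by DESeq2 (0.033), and it was 0.48 without control replicate 2 (edgeR adjusted p = 0.19). With diclofenac it had 0.64 (edgeR adjusted p = 0.28), and 1.54 without control replicate 1 (0.027). Feature H (chromosome 7, 142776252 to 142787335, 11 exons) was likewise highest with aspirin, at 7.21 and 5.4 CPM against 2.43 to 4.26 elsewhere, with 0.89 ± 0.29 (SE, edgeR adjusted p = 0.053), and passed without aspirin replicate 2, at 1.07 (0.042), among other settings.

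Median log2 fold changes over the 16 tested members were 0.18 with indomethacin, 0.23 with diclofenac, -0.18 with aspirin, near 0 for honokiol plus indomethacin against control and -0.06 against indomethacin. Over all tested genes the medians lay between -0.02 and 0. Tested members above and below 0 numbered 10 and 6 with indomethacin, 10 and 6 with diclofenac, 7 and 9 with aspirin, 8 and 8 for honokiol plus indomethacin against control and 6 and 10 against indomethacin. With diclofenac replicate 1 left out, 18 members passed the low-count filter. Diclofenac again gave 1 call, where 3.34% of all tested genes were called. Aspirin gave 5, where 14.3% were called, which were H, I, K and L, higher, and P, lower.

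**Figure D5:**
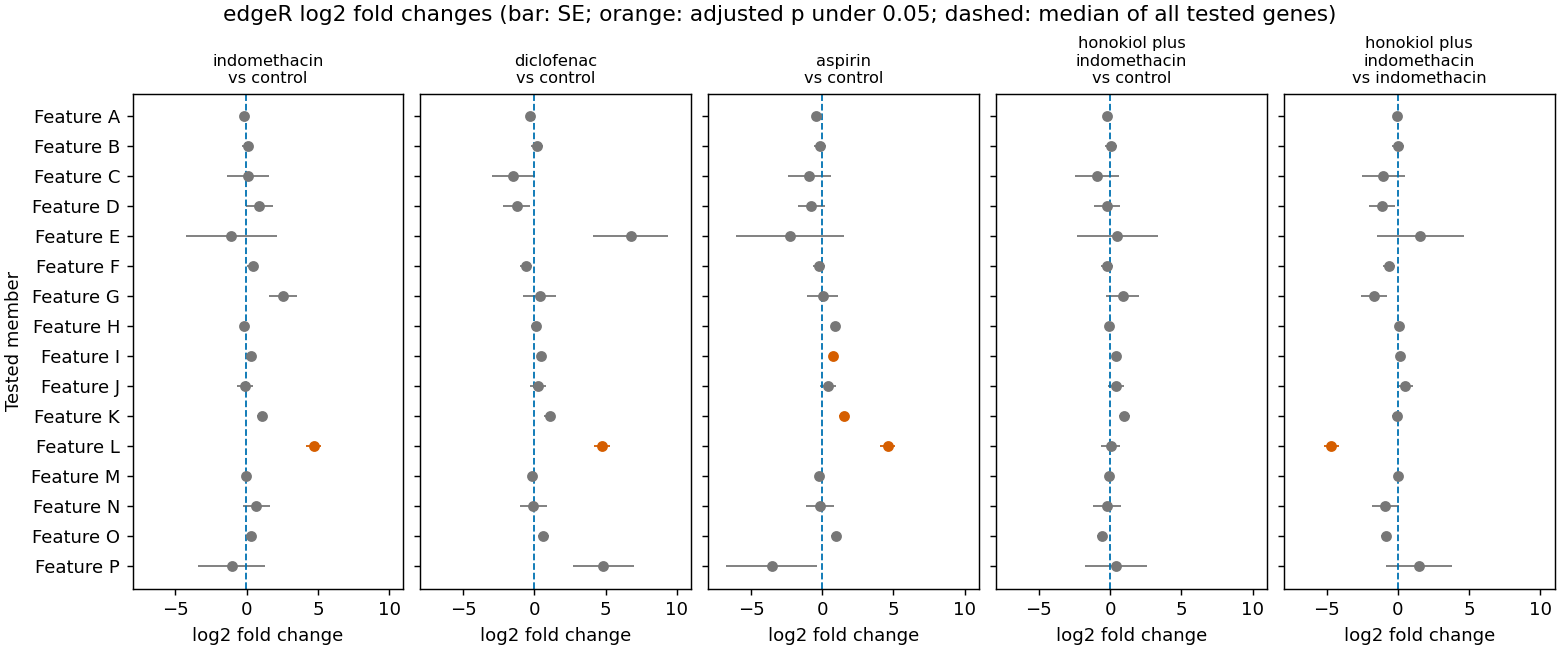
edgeR log2 fold changes (points, bars for the SE) of the 16 tested members in the 5 comparisons, with passing members in orange and the median of all tested genes as a dashed line. Feature L is the member far from the line with a short bar, and E and P have the longest bars.

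The 39 members below the test's filter had few counts. In 33 of them no library held over 10 counts, and in 27 none held over 5. Outside diclofenac replicate 1 the highest count of any of them was 18, in indomethacin replicate 1, for an 8-exon member on chromosome 10 (88032130 to 88036040) with at most 1 elsewhere. Together they held 556 counts in diclofenac replicate 1 and 25 to 62 in each other library. Of the 556, 258 were in the member at 88046803 on chromosome 10 and 198 in the member at 143312546 on chromosome 7. Diclofenac replicate 1 was the highest library by CPM from library totals for 13 of the 39 (33.3%). Among 7721 other untested features with a single highest library it was the highest for 840 (10.9%). In 3 of the 13 members there was 1 count in all, so they were members only through that library. Of those 13, members with 11 to 13 counts there were at 143219012, 143270984 and 143412858 on chromosome 7, with at most 4 counts in any other library.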

How the data were processed

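RNA was depleted of ribosomal RNA and made into stranded libraries, per the labels' protocols. The authors deposited raw counts per gene together with exon coordinates, as featureCounts writes them. The submitters' processing notes name HISAT2 2.1.0, featureCounts, DESeq2, cutadapt 1.16 and FastQC 0.11.7 among their tools. No source used here gives the genome build or the counting settings for strand, shared exons and multiple matches. Exons are distinct listed coordinates, possibly from several transcripts.

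From the counts, edgeR 4.0.16 in R 4.3.3 fitted all 10 libraries at once (TMM, filterByExpr with minimum count 10 and minimum total 15, robust, group as the only term, 5 residual degrees of freedom). The SE is the log2 fold change divided by the square root of F. The fit was tested on simulated data. Correlations, and the shares of genes with as large a replicate difference, used log2(CPM + 0.5). Alternatives were RLE factors, no filter, at least 1 CPM in 2 libraries, DESeq2 1.42.0, replicate number as a block, a term for Y reads (over 1000 counts on the 7 Y features that had a total of 50 or more and were 0 in some library), and leaving out each library.

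The rule named the 12 most abundant tested members, every called member and those at the count limit, but lists of gene symbols fixed with it could not be applied. The members and lists were chosen with earlier results of these data known. Nothing says that replicate numbers mark shared animals.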

Additional observations from a re-analysis of the deposited data

How the results depend on the processing

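Without a low-count filter all 55 members were tested. Calls then numbered 2 with indomethacin, 8 with diclofenac (2 lower), 9 with aspirin (4 lower) and 6 for honokiol plus indomethacin against indomethacin (4 lower), in place of 1, 1, 3 and 1, where 3.46%, 11%, 17.4% and 2.9% of genes were called. That fit gave feature E an SE of 0.34 with diclofenac, against 2.63 in the main fit, though the diclofenac libraries were 1310-fold apart. For C the SE was 0.32 against 1.54, with controls 38-fold apart. For such members that fit took in little of the spread between libraries. For O with aspirin its SE was 0.26 against 0.35. DESeq2 called 3 of the 55 members with diclofenac, and 1776 of the 24106 genes it was given. The 1776 were 11% of the genes with an adjusted p, and members with one were not counted. Leaving out 1 library at a time, with 18 to 21 members tested, gave 0 to 1 calls with indomethacin (0.00586% to 1.18% of genes), 1 to 5 with diclofenac (1.88% to 8.53%), 1 to 5 with aspirin (2.75% to 21.2%), 0 for honokiol plus indomethacin against control (at most 0.00588%) and 0 to 1 against indomethacin (at most 0.696%). The log2 fold changes with diclofenac then ranged from -2.79 to 2.83 for feature C, -2.04 to 0.87 for D, -1.08 to 0.35 for F, -0.86 to 2.14 for N, -2.51 to 7.77 for E and -2.83 to 5.84 for P, and that of L for honokiol plus indomethacin against control from -0.21 to 0.38. With a term for Y reads the diclofenac value was 0.2 for C and 0.9 for N. At a 3-fold threshold 25 features were higher in diclofenac replicate 1. RLE factors and the stricter filter changed no count by over 1.5 times.

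Between groups, replicate differences correlated at -0.31 to 0.37, over 0.1 in 4 of 10 pairs, so the numbers were not taken to pair the samples, which would need every pair over 0.1. The 4 were control, indomethacin and honokiol plus indomethacin among themselves (0.13 to 0.37) and aspirin with diclofenac (0.27), the sets that also differ in lines without a gene. With the replicate number as a block, the aspirin count was 2, since feature I had 0.79 ± 0.24 (SE, edgeR adjusted p = 0.055), and the diclofenac value of N was 0.21. The other counts were equal. The cause of these changes was not tested.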

Other observations

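A single-exon feature of 1262 nt inside the chromosome 7 window (143443348 to 143444609) is no member by the exon rule and was the only one of the 33 single-exon features of both windows, 25 of them on chromosome 10, with over 5 counts in all. Its mean level was 16.6 ± 2.32 CPM with diclofenac, 14.5 ± 0.851 in control, 13.3 ± 1.57 with aspirin, 12.4 ± 2.51 with indomethacin and 10.7 ± 1.61 with honokiol plus indomethacin (SD, n = 2 libraries a group). Of the other 32, 26 had 0 counts in all libraries and 6 had 1 to 5.

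A feature that crosses the start of the chromosome 10 window (86977505 to 87001256, 17 exons) had 10.1 and 5.21 CPM in the controls and 10.7 and 7.82 under honokiol plus indomethacin. It had 23 and 38.8 CPM under indomethacin, 23.1 and 26.9 under aspirin and 29.6 and 27.2 under diclofenac. Its log2 fold change with diclofenac was 1.89 (edgeR adjusted p = 0.0092).

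The profile of the 51 members other than the 4 most abundant was summed per library, from 26.5 CPM in control replicate 2 to 126.7 in diclofenac replicate 1. Among tested features outside the windows the likest in log2 level was a 6-exon feature on chromosome 17 (31493107 to 31498651, Pearson r = 0.94 over 10 libraries), and the first 10 had r of at least 0.86. This sum mixes members of different patterns, and the likeness is a description.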
